A study of Mus musculus with 8 samples.

Results

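The 10 messenger RNAs described here are encoded by the mitochondrial genome of the mouse oocyte: mt-Nd1, mt-Nd2, mt-Nd3, mt-Nd4l, mt-Nd4, mt-Nd5 and mt-Nd6 of respiratory complex I, mt-Cytb of complex III, mt-Co3 of complex IV and mt-Atp6 of complex V. They were taken by gene name from the deposited table, and all 10 were found, with 1 row each, among the 417 gene names it holds. The table gives transcript abundances for 8 libraries of ovulated (metaphase II) oocytes from females of about 6 months, with 4 libraries from L/L females (Ctrl, genotype WT in the labels) and 4 from L/L cre females (KO). The L/L allele is therefore shared by both groups and the Cre recombinase is what the KO group adds. The labels name neither the gene that Cre deletes nor the promoter that drives it, so loss of the target was not checked here. The design text asks what changes in the oocyte when reactive oxygen species rise in the mitochondrial matrix. Each library was made by Smart-seq2 from merged oocytes, whose number, and whether they came from separate females, the labels do not give. The p-values below are therefore relative to the differences among these libraries only, and those may be technical.

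Mitochondrial DNA is a small circle transcribed along its whole length from both strands, into long precursors that are cut at the transfer RNAs lying between most of the coding genes. Nearly all of its messenger RNAs are read from the heavy strand, and mt-Nd6 is the only messenger RNA read from the light strand. The abundance of each mature messenger therefore depends on a shared precursor and on how long the messenger lasts once it has been cut out. Their proteins form the membrane core of the respiratory chain, and a mature oocyte holds a very large number of copies of this genome.

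Abundances are in TPM, a share of all transcripts in the library, which are corrected for transcript length. They can be compared between genes only roughly, within limits given below. These are copies in the nuclear genome, the unmarked strand of reads at mt-Nd6, and unequal levels of mt-Nd4l and mt-Nd4 on a shared molecule. In these values all 10 messengers took a smaller share in KO than in Ctrl. For each of them every KO library lay below every Ctrl library. After quantile normalization, a scaling by rank, mt-Nd2 was not lower. There mt-Atp6 and mt-Cytb, which held ranks 1 and 2 in every library, came out at 0. The 10 passed limma's test at an adjusted p below 0.05, where 57.2% of the 402 genes tested were called lower and 93.8% were called in either direction. In 36.3% of these genes every KO value was under every Ctrl value, and in 56.5% the groups did not overlap in either direction. In every row of the table the group means were at least 2.04-fold apart. The listed rows carry such differences throughout, and these calls are not independent evidence of a fall. Some genes whose rows were summed differed less, such as Rpl22 (9.85 TPM in Ctrl and 11.9 TPM in KO). With Ctrl libraries 2 and 4 both left out, an alternative chosen after seeing the data, 2 of the 10 passed (mt-Nd4 and mt-Nd5) and 9 had an unadjusted limma p below 0.05, while the log2 fold changes stayed between -1.87 and -1.16 with a median of -1.45. The median log2 fold change of the 10 was -1.49, against -1.05 for all genes tested and -1.32 for the 248 lower in KO. The share of the 10 was taken against an assumed library total of 1000000 TPM, which the listed rows cannot verify. On that basis they made up 2.56% ± 0.273 (SD, n = 4) in Ctrl and 1.04% ± 0.389 (SD, n = 4) in KO. TPM are shares, so the amount of these messengers per oocyte was not measured, and a lower share need not mean a lower amount. Nor can fewer mitochondrial genomes per oocyte and less RNA per genome be told apart in such bulk samples. Sequencing depth is unknown, since TPM do not keep it.

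**Figure D1:**
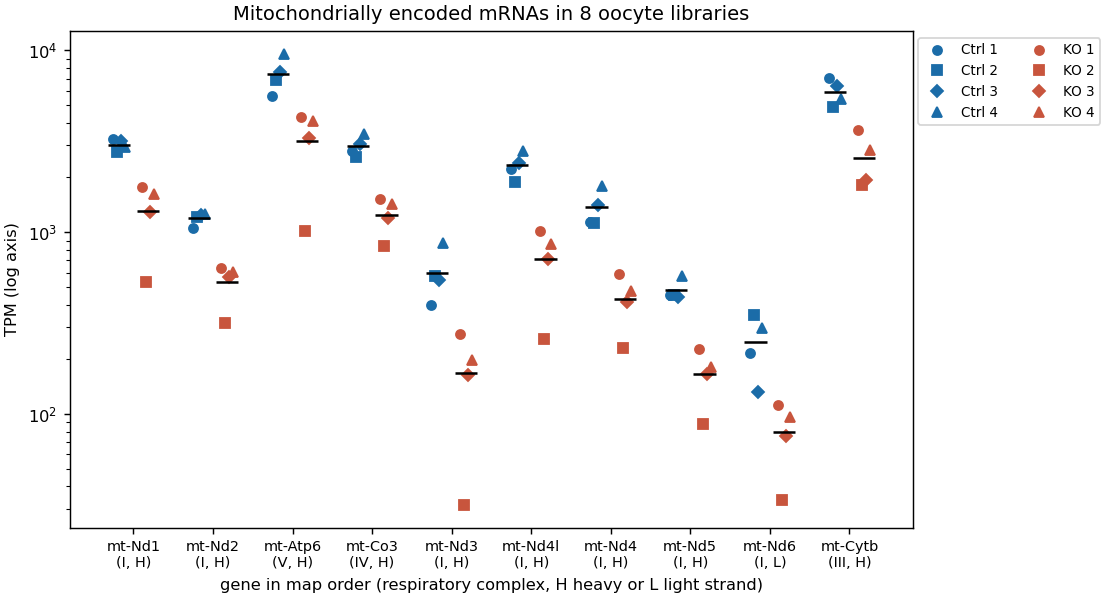
TPM of each messenger RNA (log axis) in the 4 Ctrl libraries (blue) and 4 KO libraries (red), in map order, with the group mean as a black bar. For all 10 the KO points lie below the Ctrl points in the deposited values, and KO library 2 is the lowest point of every gene; under quantile normalization mt-Nd2 was not lower and mt-Atp6 and mt-Cytb did not change.

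The order of the levels was almost the same in both groups. In Ctrl the group means ran from mt-Atp6 (7417 TPM) through mt-Cytb, mt-Nd1, mt-Co3, mt-Nd4l, mt-Nd4, mt-Nd2, mt-Nd3 and mt-Nd5 to mt-Nd6 (249 TPM). In KO they ran from 3175 TPM for mt-Atp6 to 79.2 TPM for mt-Nd6, with mt-Nd2 ahead of mt-Nd4 as the only exchange of places. Neighbours whose Ctrl ranges overlapped were mt-Atp6 with mt-Cytb, mt-Nd1 with mt-Co3, mt-Co3 with mt-Nd4l, mt-Nd4 with mt-Nd2 and mt-Nd3 with mt-Nd5, so their order is within the spread of the libraries. In KO only mt-Cytb and mt-Nd1 had ranges that did not overlap among neighbours.

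For mt-Atp6, a subunit of the proton channel of ATP synthase, the Ctrl libraries 1 to 4 stood at 5618, 6906, 7572 and 9572 TPM and the KO libraries 1 to 4 at 4315, 1017, 3299 and 4069.7 TPM. The lowest Ctrl value was 1.30 times the highest KO value, and limma gave a log2 fold change of -1.39 (SE 0.44, adjusted p = 0.0177). This was the call that a single Ctrl library decided: without Ctrl library 4 the adjusted p was 0.0519.

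For mt-Co3, a core subunit of cytochrome c oxidase, which passes electrons to oxygen, the levels were 2780.2, 2592, 3064 and 3472 TPM in Ctrl and 1519, 838, 1192 and 1433 TPM in KO. It was among the more even messengers, with a spread between libraries of 12.9% of the mean in Ctrl and 24.5% in KO (coefficients of variation), and limma put its log2 fold change at -1.28 (SE 0.32, adjusted p = 0.0091). For mt-Cytb, cytochrome b, the only subunit of complex III that mitochondria encode, the levels were 7038, 4893, 6396 and 5421 TPM in Ctrl and 3627, 1816, 1943 and 2832 TPM in KO, a limma log2 fold change of -1.26 (SE 0.35, adjusted p = 0.0124). Its Ctrl libraries were ordered differently from those of mt-Atp6, with library 1 highest for mt-Cytb and lowest for mt-Atp6, and the ratio of mt-Cytb to mt-Atp6 ranged from 0.566 to 1.25 within Ctrl alone.

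Complex I, the NADH dehydrogenase through which most electrons enter the chain, takes 7 of its subunits from this genome, and all 7 are in the table. On the log2 scale mt-Nd3 changed most among them (-2.13) and mt-Nd2 least (-1.21), and the median of the 7 was -1.67, against -1.28 for the 3 messengers of complexes III, IV and V. The summed level of the complex I messengers was 9249 ± 949 TPM in Ctrl and 3390 ± 1365 TPM in KO, a 2.73-fold difference. That of the 3 others was 16331 ± 1790 and 6975 ± 2532 TPM, a 2.34-fold difference (SD, n = 4 for each). The geometric mean of the complex I messengers divided by that of the others was 0.179, 0.211, 0.167 and 0.205 in the Ctrl libraries and 0.162, 0.119, 0.169 and 0.154 in the KO libraries. The groups overlapped in this ratio, since KO library 3 lay above Ctrl library 3, and the log2 difference of -0.34 was smaller, -0.23, without KO library 2. This ratio is a description of the chosen genes and was not tested.

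The fold changes of the first complex I messengers on the map lay near those of the other complexes. For mt-Nd1, which lies at the base of the membrane arm, the levels were 3263, 2752, 3179 and 2937 TPM in Ctrl and 1768, 529.5, 1289.5 and 1631 TPM in KO, and the limma log2 fold change was -1.35 (SE 0.39, adjusted p = 0.014). For mt-Nd2, a proton-pumping subunit, they were 1057, 1212, 1239.7 and 1254 TPM in Ctrl and 637, 315, 569 and 603 TPM in KO. These were the steadiest messengers in Ctrl, with coefficients of variation of 7.68% for mt-Nd1 and 7.64% for mt-Nd2. The change of mt-Nd2 was the smallest of the 10 with a limma log2 fold change of -1.21 (SE 0.33, adjusted p = 0.0117), and its sign turned under quantile normalization (0.06).

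The largest log2 fold changes in the deposited values, from -2.13 to -1.59, belonged to messengers that follow each other on the map: mt-Nd3, mt-Nd4l, mt-Nd4, mt-Nd5 and the light-strand mt-Nd6. For mt-Nd3, a small subunit at the junction of the membrane and matrix arms, Ctrl stood at 399, 574, 544 and 876 TPM and KO at 276, 31.6, 163 and 199 TPM (limma adjusted p = 0.0091). KO library 2 held 14.8% of the mean of the other KO libraries, and without it the log2 fold change went from -2.13 to -1.46. For mt-Nd5, a proton-pumping subunit at the far end of the membrane arm, Ctrl stood at 453, 449, 438 and 575 TPM and KO at 227, 88.2, 167 and 182 TPM, with a limma log2 fold change of -1.59 (SE 0.34, adjusted p = 0.00469). Ctrl library 4 was set apart from the other Ctrl libraries, which stood between 438 and 453 TPM.

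**Figure D2:**
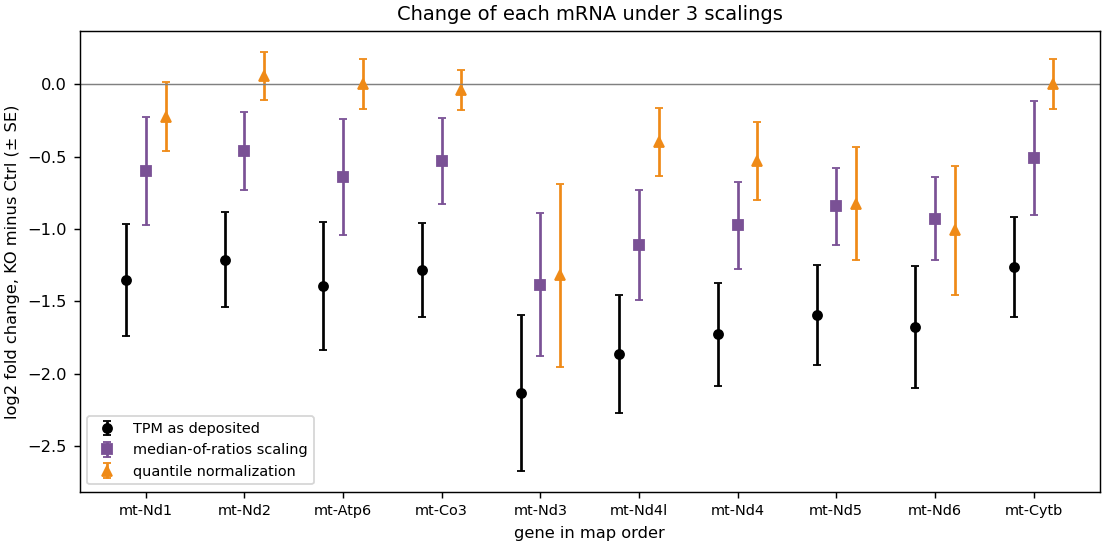
Log2 fold change of each messenger RNA (KO minus Ctrl, points, with limma's SE as bars) in map order, for TPM as deposited (black), median-of-ratios scaling (purple) and quantile normalization (orange). The values from mt-Nd3 to mt-Nd6 are the most negative under the first 2 scalings; under quantile normalization mt-Nd2 lies above 0 and mt-Atp6 and mt-Cytb lie at 0.

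How far the messengers fell depended on the scaling. Median-of-ratios scaling, computed from the listed genes outside the 10, moved the fold changes of all genes by a median of 0.55 on the log2 scale. After it all 10 messengers were still lower, with mt-Nd3 again changed most (log2 fold change -1.38) and mt-Nd2 least (-0.46). The 5 that passed there were mt-Nd3, mt-Nd4l, mt-Nd4, mt-Nd5 and mt-Nd6, where 11.9% of the 395 genes tested were called lower. Of all genes called there, 149 were higher and 47 lower in KO, against 147 and 230 in the deposited values. Under quantile normalization none of the 10 passed (limma; only mt-Nd6 had an unadjusted p below 0.05, 0.0442), where 22.8% of 394 genes were called lower, with 146 genes called higher and 90 lower. Both scalings use only the listed genes, and the group means of every listed row differ. Quantile normalization works by rank, and several of the 10 kept nearly the same rank among the 417 genes in all libraries. These were also mt-Co3 (3 to 4), mt-Nd1 (3 to 6), mt-Nd4l (5 to 9) and mt-Nd2 (7 to 9). For these a small change was largely set by their ranks, so it does not show equal levels. The ranks of mt-Nd4 (6 to 11), mt-Nd5 (10 to 25), mt-Nd6 (13 to 55) and mt-Nd3 (10 to 60) varied more.

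mt-Nd6 encodes a membrane-arm subunit of complex I and is the single light-strand member. The heavy-strand messengers are poor in G, with at most 13.8% G and with 22.1% to 29.97% C. In mt-Nd6 this is turned round, with 28.1% G and 5.97% C in 519 bases. The first 120 bases of mt-Nd6 (chrM:13951-14070, minus strand, GRCm38) and of its heavy-strand neighbour mt-Cytb (chrM:14145-14264, plus strand) show this, with each G in capitals, 28 in mt-Nd6 and 13 in mt-Cytb.
mt-Nd6: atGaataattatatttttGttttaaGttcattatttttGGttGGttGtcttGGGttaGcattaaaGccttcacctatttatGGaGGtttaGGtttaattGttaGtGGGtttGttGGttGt
mt-Cytb: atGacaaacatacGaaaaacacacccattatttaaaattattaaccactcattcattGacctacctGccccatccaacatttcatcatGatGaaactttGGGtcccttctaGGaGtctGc

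The coding ends of mt-Nd5 and mt-Nd6 run into each other on opposite strands and overlap by 14 bases (positions 13552 to 13565). The last 60 bases of each are given with the complementary bases in capitals (mt-Nd5 chrM:13506-13565, plus strand; mt-Nd6 chrM:13552-13611, minus strand).
mt-Nd5: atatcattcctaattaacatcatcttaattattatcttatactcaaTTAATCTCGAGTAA
mt-Nd6: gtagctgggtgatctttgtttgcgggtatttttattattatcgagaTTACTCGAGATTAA
Smart-seq2 does not mark the strand of a molecule, so reads of mt-Nd6 and of a heavy-strand precursor running through the same stretch cannot be told apart, and the mt-Nd6 level may hold both.

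The level of mt-Nd6 was 217, 351, 131 and 296 TPM in Ctrl and 112, 33.9, 75.6 and 95.9 TPM in KO. It had the narrowest gap between the groups, with a lowest Ctrl value 1.18 times the highest KO value, and the widest spread in Ctrl, at a coefficient of variation of 38.5%. Its limma log2 fold change, -1.67 (SE 0.42, adjusted p = 0.0091), lay within the range of the heavy-strand members. Divided by the geometric mean of the 9 heavy-strand messengers in the same library, mt-Nd6 was 0.122, 0.200, 0.0663 and 0.130 in Ctrl and 0.111, 0.104, 0.107 and 0.112 in KO. The KO libraries were nearly equal in this strand ratio and lay inside the Ctrl range, which was wide because of Ctrl libraries 2 and 3.

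No difference in the strand ratio was detectable. The log2 difference of the ratio to the heavy-strand mean was -0.15, and it became 0.09 without Ctrl library 2 and -0.44 without Ctrl library 3. Each of the 9 ratios of mt-Nd6 to a heavy-strand messenger had overlapping groups (exact two-sided permutation p from 0.229 to 0.914, adjusted over all 45 ratios from 0.468 to 0.957). For mt-Nd5, its overlapping neighbour, the log2 of the ratio of mt-Nd5 to mt-Nd6 differed by 0.09, and the range of the 16 differences between a KO and a Ctrl library, an exact interval of 97.1% confidence for a shift, ran from -0.81 to 1.03. That interval takes in sizeable changes in both directions, so equal behaviour of the strands is not shown.

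mt-Nd4l and mt-Nd4 are read from the same mature transcript, in overlapping frames. mt-Nd4 encodes a proton-pumping subunit of complex I and mt-Nd4l a small subunit of its membrane arm. Their shared 7 bases (positions 10167 to 10173) are in capitals in the last 60 bases of mt-Nd4l (chrM:10114-10173) and the first 60 of mt-Nd4 (chrM:10167-10226, both plus strand, GRCm38), where the start codon of the latter lies inside the end of the former.
mt-Nd4l: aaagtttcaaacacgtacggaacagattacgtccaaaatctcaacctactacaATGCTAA
mt-Nd4: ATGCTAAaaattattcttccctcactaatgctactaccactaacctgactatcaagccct

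The level of mt-Nd4l was 2228, 1895, 2409 and 2794 TPM in Ctrl and 1019.8, 257, 713 and 863 TPM in KO. That of mt-Nd4 was 1137, 1125, 1404 and 1804 TPM in Ctrl and 588, 230.5, 415 and 477 TPM in KO. The 2 reading frames thus had unequal TPM, although they share a molecule. Copies in the nuclear genome were identical over 294 of the 297 bases of mt-Nd4l and 876 of the 1378 bases of mt-Nd4. Whether the inequality lies in the RNA or in how reads were assigned was not tested. The ratio of mt-Nd4l to mt-Nd4 was 1.96, 1.68, 1.72 and 1.55 in Ctrl and 1.73, 1.12, 1.72 and 1.81 in KO, so 3 of the 4 KO libraries lay within the Ctrl range. KO library 2 stood apart, and without it the log2 difference of the ratio went from -0.14 to 0.03. No difference in this ratio was detectable (exact two-sided permutation p = 0.686, interval of the log2 shift -0.81 to 0.22). By limma mt-Nd4l fell by 1.86 (SE 0.41, adjusted p = 0.00503) and mt-Nd4 by 1.73 (SE 0.35, adjusted p = 0.0041) on the log2 scale.

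A ratio of 2 genes within a library does not depend on how that library was scaled, so all 45 ratios between the 10 messengers were compared. None passed after adjustment over the 45 (exact two-sided permutation test, smallest adjusted p = 0.214), nor with limma across the ratios, where 9 had an unadjusted p below 0.05. Before adjustment 6 ratios, or 13.3%, reached an exact permutation p of 0.0286, the smallest that 4 against 4 libraries allow, with groups that did not overlap. These 6 were mt-Co3 to mt-Nd4, mt-Co3 to mt-Nd4l, mt-Nd2 to mt-Nd4, mt-Atp6 to mt-Nd4l, mt-Atp6 to mt-Nd3 and mt-Nd1 to mt-Nd4l. In each the messenger of the mt-Nd3 to mt-Nd4 stretch was the relatively lower in KO. That stretch was marked out by its fold changes in these same values, so the shared direction is not separate support.

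The ratio of mt-Co3 to mt-Nd4l was 1.25, 1.37, 1.27 and 1.24 in Ctrl and 1.49, 3.25, 1.67 and 1.66 in KO. Ctrl was tight in this ratio and every KO library lay above it (log2 difference 0.58, interval 0.12 to 1.39, exact two-sided permutation p = 0.0286, adjusted p = 0.214). The ratio of mt-Co3 to mt-Nd4 was 2.44, 2.30, 2.18 and 1.92 in Ctrl and 2.58, 3.63, 2.87 and 3.004 in KO, with a log2 difference of 0.44 (interval 0.08 to 0.92, the same p-values by the exact test). mt-Co3 and mt-Nd4 come from different complexes, and their ratio was above the Ctrl range in all 4 KO libraries without passing the adjusted threshold.

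The ratio of mt-Atp6 to mt-Nd4l was 2.52, 3.65, 3.14 and 3.43 in Ctrl and 4.23, 3.95, 4.63 and 4.72 in KO. That of mt-Nd1 to mt-Nd4l, both of complex I, was 1.46, 1.45, 1.32 and 1.05 in Ctrl and 1.73, 2.06, 1.81 and 1.89 in KO (log2 difference 0.51, interval 0.24 to 0.97). The ratios without overlap thus included pairs within complex I. Without KO library 2, 5 of these 6 ratios again had an exact two-sided permutation p of 0.0286, the smallest that 4 against 3 libraries allow. The number of the 45 ratios with an unadjusted p below 0.05 in the exact permutation test fell from 6 to 2 without Ctrl library 4 and to 3 without Ctrl library 1, and it was 4 without Ctrl library 2, Ctrl library 3 or KO library 4.

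**Figure D3:**
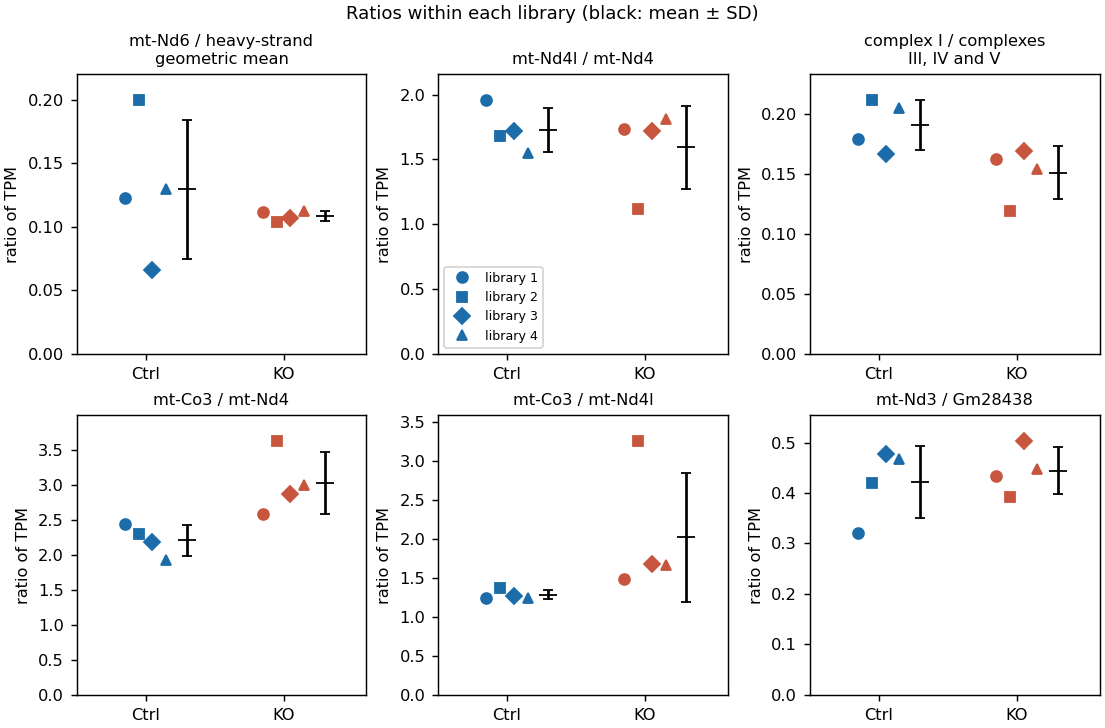
Ratios of TPM within each library for the 4 Ctrl (blue) and 4 KO (red) libraries, with mean ± SD in black; complex and strand ratios use geometric means, and equal marker shapes mean equal library numbers, not pairs. The mt-Nd6, mt-Nd4l to mt-Nd4, complex I and mt-Nd3 to Gm28438 ratios overlap between the groups, whereas the mt-Co3 to mt-Nd4 and mt-Co3 to mt-Nd4l ratios do not, with KO library 2 highest at 3.63 and 3.25.

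The libraries also differed in profile. KO library 2 was lowest and KO library 1 highest among the KO libraries for all 10 messengers. Relative to the Ctrl mean of each gene, the median of the 10 was -1.01 in KO library 1, -2.53 in library 2, -1.55 in library 3 and -1.17 in library 4 (log2). Within KO library 2 the genes spanned 2.49 on this scale, from mt-Nd3 at -4.18 to mt-Cytb at -1.69, against spans of 0.49 to 0.75 in the other KO libraries and 0.72 to 0.95 in Ctrl. The 405 other listed genes, without Gm28438 and Gm20594, summed to 7338 TPM in KO library 2, the highest of the KO libraries (4409 to 7338 TPM). The median-of-ratios size factor used 256 listed genes outside the 10, with Gm28438 and Gm20594 among them. It was nevertheless lowest in KO library 2 (0.568, against 0.805 to 0.930 in the other KO libraries), so this library was also low in many of those genes. The part of KO library 2 in the results was measured by leaving it out: all 10 messengers passed without it, with log2 fold changes from -1.46 to -0.91.

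**Figure D4:**
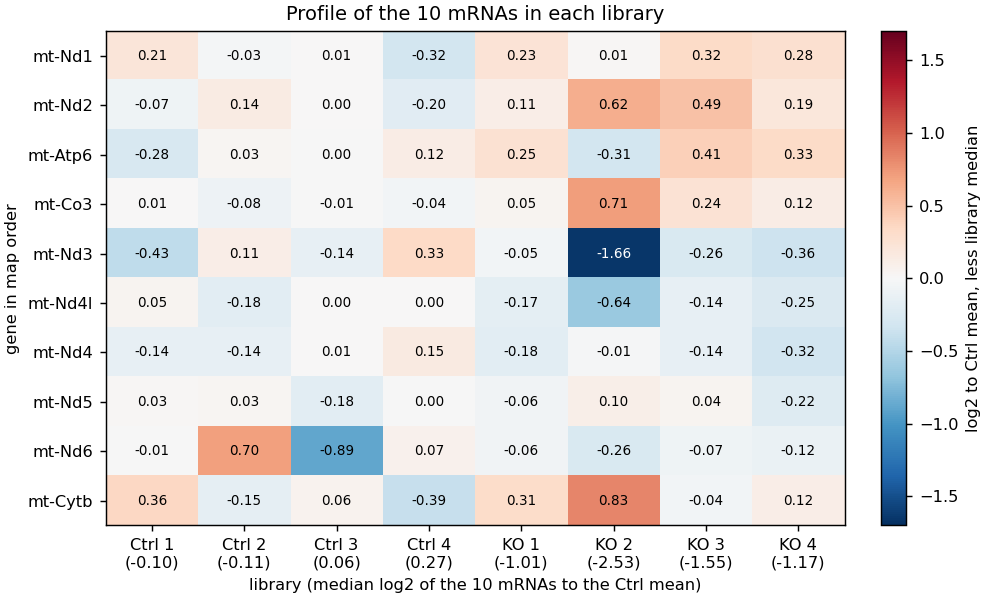
Log2 level of each messenger RNA relative to its Ctrl mean, less the median of the 10 in that library (given under each library name), with red above and blue below that median. KO library 2 has the widest profile, from -1.66 for mt-Nd3 to 0.83 for mt-Cytb, and in Ctrl the extremes are mt-Nd6 in libraries 2 (0.70) and 3 (-0.89).

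How far the 10 messengers varied together beyond the group difference depended on KO library 2. With the group means taken out, Pearson's r between pairs of log2 levels over the 8 libraries was above 0 for all 45 pairs, with a median of 0.92. The highest value was 0.99 for mt-Atp6 with mt-Nd3 and the lowest 0.36 for mt-Nd6 with mt-Cytb, neighbours on the map that are read from opposite strands. Without KO library 2, an alternative chosen after seeing the data, the median over the 7 libraries was 0.61 and 2 of the 45 values were below 0, mt-Nd6 with mt-Cytb (-0.08) and mt-Nd6 with mt-Nd1 (-0.08). There mt-Nd1 and mt-Cytb were the most alike (r = 0.99), whereas mt-Atp6 with mt-Nd1 stood at 0.22 and mt-Atp6 with mt-Cytb at 0.14. All these values share the library and its scaling. The other listed genes most like the summed level of the 10 in this respect were Cand1, which exchanges the substrate receptors of cullin ubiquitin ligases (r = 0.93), Slc39a10, a zinc importer (r = 0.91), and Rufy1, an endosomal protein (r = 0.89). Without KO library 2 these were 0.77 for Cand1, 0.50 for Slc39a10 and 0.78 for Rufy1. Cand1 ranged between 12.1 and 17.0 TPM in Ctrl, and in KO between 0.526 TPM, in library 2, and 8.90 TPM.

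Near-identical copies in the nuclear genome limit what the levels of some members mean. A stretch of chromosome 1 holds copies of mt-Atp6 (Gm10925), mt-Co3 (Gm28437), mt-Nd4l (Gm10222) and the first 876 bases of mt-Nd4 (Gm28439) that are identical over the aligned bases, and a copy of mt-Nd3 (Gm28438). Reads from such stretches could be split between the mitochondrial and nuclear entries, and the levels of these members are uncertain to that extent. Copies of mt-Nd2 on chromosome 2 and of mt-Nd5 on chromosome 13 were 96.7% and 95.2% identical over part of the gene. mt-Nd1, mt-Nd6 and mt-Cytb had no copy of at least 95% over 200 bases among the GENCODE M21 transcripts, and they were lower in all 4 KO libraries in the deposited TPM, with mt-Cytb at 0 under quantile normalization. The 5 members with a copy of over 99% had a median log2 fold change of -1.73 and the other 5 of -1.35.

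Gm28438 (chromosome 1, 24612775 to 24613119, minus strand) is the only such copy with a row in the table analysed here. It differs from mt-Nd3 by 1 base of 345, T3C, counted from the first base of mt-Nd3, shown in capitals in the first 60 bases of each (mt-Nd3 chrM:9459-9518, plus strand; Gm28438 chr1:24613060-24613119, minus strand).
mt-Nd3: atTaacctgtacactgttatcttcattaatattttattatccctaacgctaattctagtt
Gm28438: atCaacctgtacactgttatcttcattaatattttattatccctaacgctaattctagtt
The nuclear entry had the higher level in all 8 libraries, at 1242, 1370.1, 1139 and 1872 TPM in Ctrl and 638, 80.7, 325 and 445 TPM in KO. It was 2.09 to 3.12 times the level of mt-Nd3 in Ctrl and 1.99 to 2.55 times in KO, and these ranges overlapped. With both entries added, the level was 2004 ± 514 TPM in Ctrl and 540.02 ± 335 TPM in KO (SD, n = 4), and the log2 difference of -2.20 was close to that of mt-Nd3 alone. In this sum mt-Nd3 would stand above mt-Nd4 in Ctrl (ratio 1.20 to 1.73) and not below it. The place of mt-Nd3 in the order of levels thus depends on whether the nuclear entry is added.

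mt-Co3, mt-Nd4 and mt-Cytb end, in the annotation, in a lone T that becomes a stop codon only when the poly(A) tail is added, shown in capitals in their last 30 bases (chrM:9361-9390, 11515-11544 and 15259-15288, plus strand).
mt-Co3: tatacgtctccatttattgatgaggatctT
mt-Nd4: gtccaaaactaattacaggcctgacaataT
mt-Cytb: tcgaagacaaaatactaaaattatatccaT
The other 7 members carry a whole stop codon in the annotation. The last 2 bases of mt-Nd1 and of mt-Nd2 also belong to the transfer RNA genes mt-Ti and mt-Tw. Whether the mature messengers of these 2 genes keep those bases was not tested. The log2 fold changes of mt-Co3, mt-Nd4 and mt-Cytb were -1.28, -1.73 and -1.26, and lay within the range of the other 7.

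Of 15 messenger and ribosomal RNAs of this genome, mt-Co1, mt-Co2, mt-Atp8, mt-Rnr1 and mt-Rnr2 were not analysed here. Their absence leaves complex IV with mt-Co3 alone and mt-Atp6 without mt-Atp8, the frame with which it shares a transcript and 43 bases. Gm20594, a nuclear gene on chromosome 6 that is 88.5% identical to mt-Rnr2 over 435 bases, was named after its values were seen. It was lower, from 1349 ± 499 TPM in Ctrl to 601 ± 214 TPM in KO (SD, n = 4, limma adjusted p = 0.0177).

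Lists of nuclear genes that serve these messengers or their complexes were drawn up here, and few of the listed genes had a row. The lists are not complete. They left out Dhx30 and mitochondrial ribosome genes such as Mrpl13 and Mrps21, which had rows. None of the 37 genes listed for mitochondrial RNA synthesis, processing and decay was in the table. Of 19 genes for mitochondrial DNA replication and nucleotide supply, 2 were: Rrm2b, a ribonucleotide reductase subunit, was called lower (limma log2 fold change -1.72, adjusted p = 0.0147) and Dna2, a nuclease and helicase, was called higher (1.78, adjusted p = 0.0103), both with overlapping groups. Of the genes taken here as nuclear subunits, 1 of 36 for complex I (Ndufa10, lower, with overlapping groups) and 1 of 9 for complex III (Uqcrq, higher) had a row. So did 1 of 16 for complex IV (Cox7a2l, a subunit-like gene, lower) and none of 20 for complex V. Uqcrq ranged between 15.3 and 31.2 TPM in Ctrl, and between 57.2 and 79.8 TPM in KO. It was higher in KO (limma log2 fold change 1.58, SE 0.35, adjusted p = 0.00524), whereas mt-Cytb of the same complex was lower in the deposited values and at 0 under quantile normalization. No row was found for the 12 oocyte markers, the 12 cumulus and granulosa markers or the 10 stromal, blood and immune markers, so the labelled cell type was not checked here.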

How the data were processed

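TPM for 469 rows in 8 libraries were deposited by the authors; the submitters' processing notes list GRCm38 as the build and the tools kallisto 0.46.2 and sleuth 0.30.1, while the annotation, the choice of rows and any normalization before deposit were not given in the sources used here. Columns were matched to samples by description and samples grouped by title. Rows of 1 gene name were summed (417 genes), genes averaging 1 TPM or more kept (402), and log2(TPM + 1) fitted with limma 3.58.1 in R 4.3.3 (eBayes with trend, two-sided, Benjamini-Hochberg adjustment, threshold 0.05); fold changes are on this scale. The 45 within-library ratios used exact permutation tests. The limma fit was tested on simulated data. Sequences and positions come from GENCODE M21 (GRCm38), and copies from megablast (BLAST+ 2.17.0, at least 95% identity over 200 bases). Python 3.11.15 was used for the rest. All 10 messengers, their near-identical copies, up to 4 genes of each list and the 3 genes most like the summed level were named. The members and lists were chosen with earlier results of these data known. Alternatives were other pseudocounts (0.1 and 5), filters (none, and a mean of at least 5 TPM), scalings, eBayes without trend, a replicate block and leaving libraries out; leaving out Ctrl libraries 2 and 4 together was chosen after seeing the data.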

Additional observations from a re-analysis of the deposited data

Results flagged for a closer look

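For mt-Nd5 in Ctrl, library 4 (575 TPM) lay far from the others (438 to 453 TPM), with a gap of 0.89 of the group's range, above Dixon's critical value for 4 samples. For the ratio of mt-Nd4l to mt-Nd4 in KO, library 2 (1.12) lay far from the others (1.72 to 1.81), with a gap of 0.868 of the range, also above it. Of 32 groups of 4 libraries examined in this way these 2 stood out, and chance flags about 1 in 20.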

How the results depend on the processing

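All 10 messengers passed as lower with either other pseudocount, unfiltered, with genes averaging 5 TPM or more, with values rescaled to the part outside the 10, with eBayes without trend and with the replicate block. Median-of-ratios scaling left 5, quantile normalization 0 (mt-Nd2 at a log2 fold change of 0.055), and leaving out Ctrl libraries 2 and 4 together left 2, mt-Nd4 and mt-Nd5, at a median log2 fold change of the 10 of -1.45 against -1.49. Leaving out single libraries left 9 to 10. Over all genes tested, log2 fold changes moved by a median of 0.55 under median-of-ratios scaling, 0.27 under quantile normalization and 0.16 with a pseudocount of 5. For the 10 messengers the median log2 fold change, -1.49 in the deposited values, was -0.74, -0.31 and -1.48 in these settings. Of all listed genes, 377 were called (147 higher, 230 lower), against 213 of those averaging 5 TPM or more (fewer genes tested), 196 under median-of-ratios scaling (149 higher, 47 lower), 236 under quantile normalization (146 higher, 90 lower), 47 without Ctrl libraries 2 and 4 together, and 178 (without Ctrl library 2) to 357 (without Ctrl library 3) when single libraries were left out, with 209 without KO library 2 and 232 without Ctrl library 4; the cause was not tested. With the replicate block 279 genes were called; the numbers did not pair the samples (correlations of same-numbered deviations from -0.26 to 0.07), and no messenger's call changed under the block. No ratio passed after adjustment under any alternative, including the replicate block, where the exact sign-flip test cannot go below 0.125. The ratios with an unadjusted p below 0.05 numbered 2 to 8 when single libraries were left out. The log2 difference of the strand ratio ran from -0.44 to 0.09, that of mt-Nd4l to mt-Nd4 from -0.20 to 0.03 and that of complex I to the other complexes from -0.40 to -0.23 when single libraries were left out. TPM keep no depth, so counting error could not be given.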
